A study of Bos taurus with 32 samples.

Results

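The miR-99, miR-100 and miR-125 families were described in fat of beef steers from the 6 miRNAs of the array that bear these names, bta-miR-99a, bta-miR-99a*, bta-miR-99b, bta-miR-100, bta-miR-125a and bta-miR-125b, which are 0.893% of the bovine miRNAs on the array. Members were chosen by name, with earlier results of these data known. Hereford×Aberdeen Angus crossbred steers in the second year of life were fed a control diet low in fat (8 steers) or a high fat diet made by adding flaxseed (8 steers). At slaughter each steer gave subcutaneous fat from the back (backfat) and visceral fat from around the kidney (perirenal fat), so the 4 groups of 8 samples came from 16 steers and 32 single-dye Agilent arrays. Whole frozen fat was used, a mixture of adipocytes and other cells, in which fewer cells of a type and less RNA per cell cannot be told apart.

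MicroRNAs are short RNAs that repress mRNAs through pairing with the seed, a stretch near the 5′ end. bta-miR-99a, bta-miR-99b and bta-miR-100 share a seed and are known to repress MTOR and the IGF1 receptor, while bta-miR-125a and bta-miR-125b share another and are the vertebrate counterparts of the worm miRNA lin-4, which acts with let-7 in developmental timing. These genes lie beside let-7 genes. In the order of miRNA genes of the RefSeq annotation of assembly ARS-UCD2.0, MIR125B-2, MIRLET7C and MIR99A follow each other, as do MIR125B-1, MIRLET7A-2 and MIR100, and MIR99B, MIRLET7E and MIR125A. The same mature bta-miR-125b comes from 2 of these clusters, so the array could not tell them apart. The mature bta-miR-99a and bta-miR-100 differ at a single base, and how far their probes share signal was not tested. bta-miR-99a* is the RNA of the other arm of the MIR99A hairpin.

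The summed intensity of all miRNAs per array was 26021 to 79290 in control steers and 96888 to 366714 in high fat steers, a ratio of medians of 5.42. The same ratio was 0.847 for the labelling spike-in RNAs and 0.957 for the local background of the spots. Each group was on 1 slide of 8 arrays and each diet was scanned in its own session, so that a group cannot be told apart from its slide, nor a diet from its scan session. The subcutaneous sample of control steer C108 had a log2 scaled intensity of -2.43 for bta-miR-196a, against -7.22 to -6.04 in the other control subcutaneous samples and -2.73 to -1.68 in control visceral fat. For this miRNA the library labelled subcutaneous thus lay at the visceral level, against its label. Without it the log2 differences of high fat minus control in subcutaneous fat were 1.10 for bta-miR-99a, 0.71 for bta-miR-100, -0.88 for bta-miR-99b, -0.88 for bta-miR-125a and -0.15 for bta-miR-125b, and the same 4 were called. Of the markers fixed for fat, 4 of 7 were detected on all arrays, with bta-miR-193b detected on none of the control arrays. All 5 markers of fibroblasts and stroma and 1 of 2 of endothelium (bta-miR-126) were detected on all arrays, against 0 of 5 of muscle and 0 of 1 of liver (bta-miR-122), 1 of 3 of kidney and 3 of 7 of blood and immune cells.

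bta-miR-99a, bta-miR-99b, bta-miR-100 and bta-miR-125b were detected on all 32 arrays. Their levels are given as log2 scaled intensity, which is the intensity over a 75th percentile of the same array, taken from the 91 miRNAs that every array detected. The other members were dim. bta-miR-125a was detected in subcutaneous and visceral fat on 5 and 3 of 8 control arrays and on 7 and 6 of 8 high fat arrays, and bta-miR-99a* on 0 and 0 control arrays and 7 and 3 high fat arrays. Of the 6 members 5 were tested among 233 miRNAs, and bta-miR-99a* was not, as its scaled intensity lay under the common floor (log2 -7.22) on every array.

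The question of the first comparisons was whether the high fat diet changed these miRNAs in each depot. Under the main scaling, in subcutaneous fat bta-miR-99a and bta-miR-100 were higher and bta-miR-99b and bta-miR-125a were lower in high fat steers, and in visceral fat bta-miR-99a, bta-miR-100 and bta-miR-125b were higher and bta-miR-99b was lower. Each of these directions turned under at least 1 other scaling. In subcutaneous fat 2 of 5 members tested were thus called higher and 2 lower (limma, Benjamini-Hochberg adjusted p under 0.05), where 41.6% of all miRNAs tested were called higher and 34.3% lower. In visceral fat 3 were called higher and 1 lower, beside 42.1% and 29.6% of all miRNAs. Most miRNAs moved between diets, and these shares set no member apart.

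bta-miR-99a had the largest diet difference among the members tested in both depots under the main scaling. In subcutaneous fat its log2 scaled intensity was -2.57 to -1.15 (median -1.55) in control steers and -0.63 to -0.08 (median -0.45) in high fat steers, without overlap between the diets. In visceral fat it was -3.01 to -1.47 (median -2.19) and -1.09 to -0.41 (median -0.80), again with no overlap. The difference of high fat minus control was 1.23 (SE 0.203, adjusted p = 2.76e-06 by limma) in subcutaneous and 1.45 (SE 0.203, adjusted p = 1.58e-07) in visceral fat, a 2.35-fold and a 2.74-fold higher level. With normexp background correction of the spots the differences were smaller, at 0.63 and 0.45 (adjusted p = 6.67e-06 and 6.24e-04 by limma). Groups of 8 did not overlap for 52.8% of all miRNAs tested in subcutaneous and 46.4% in visceral fat. Both probes of bta-miR-99a rose when taken alone, by 1.37 and 1.20 in subcutaneous and 1.78 and 1.37 in visceral fat.

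bta-miR-100, its closest relative in sequence, was higher by less. In subcutaneous fat it was -2.12 to -0.92 (median -1.59) in control steers and -1.06 to -0.54 (median -0.79) in high fat steers. In visceral fat it was -2.37 to -1.13 (median -1.74) and -1.31 to -0.28 (median -0.88). The groups overlapped in both depots. The difference was 0.79 (SE 0.192, adjusted p = 4.92e-04 by limma) in subcutaneous and 0.94 (SE 0.192, adjusted p = 5.99e-05) in visceral fat, and neither was called with normexp background correction of the spots (0.24 and 0.24, adjusted p = 0.0839 and 0.0793 by limma). The subcutaneous call was also lost with quantile normalization (0.36, adjusted p = 0.0879 by limma), and in the deposited values the differences were -0.61 and -0.13.

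bta-miR-99b, which shares the seed but lies in another cluster, was lower in high fat steers. In subcutaneous fat it was -4.31 to -3.15 (median -3.64) in control steers and -4.82 to -4.38 (median -4.64) in high fat steers, with no overlap. In visceral fat it was -4.11 to -3.00 (median -3.30) and -4.63 to -3.45 (median -4.24), and the groups overlapped. The difference was -0.91 (SE 0.184, adjusted p = 5.83e-05 by limma) in subcutaneous and -0.71 (SE 0.184, adjusted p = 8.97e-04) in visceral fat. Before scaling the direction was the other way, since its intensity was 5.95 to 35.1 on the control subcutaneous arrays and 51.6 to 123 on the high fat ones.

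bta-miR-125b, under the main scaling, differed least between diets among the 4 members detected on all arrays, but in subcutaneous fat it differed by more than bta-miR-99b without scaling and by more than bta-miR-100 with quantile normalization (0.82 against 0.36). In subcutaneous fat it was 1.62 to 2.73 (median 2.13) in control steers and 1.98 to 2.26 (median 2.12) in high fat steers, with overlap. In visceral fat it was 1.09 to 2.02 (median 1.55) and 1.59 to 2.47 (median 1.81), with overlap. The difference was -0.07 (95% interval -0.40 to 0.26, adjusted p = 0.698 by limma) in subcutaneous and 0.40 (SE 0.162, adjusted p = 0.0279) in visceral fat, and the visceral difference was not called by the methods' t-test after Benjamini-Hochberg adjustment (adjusted p = 0.0602).

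**Figure D1:**
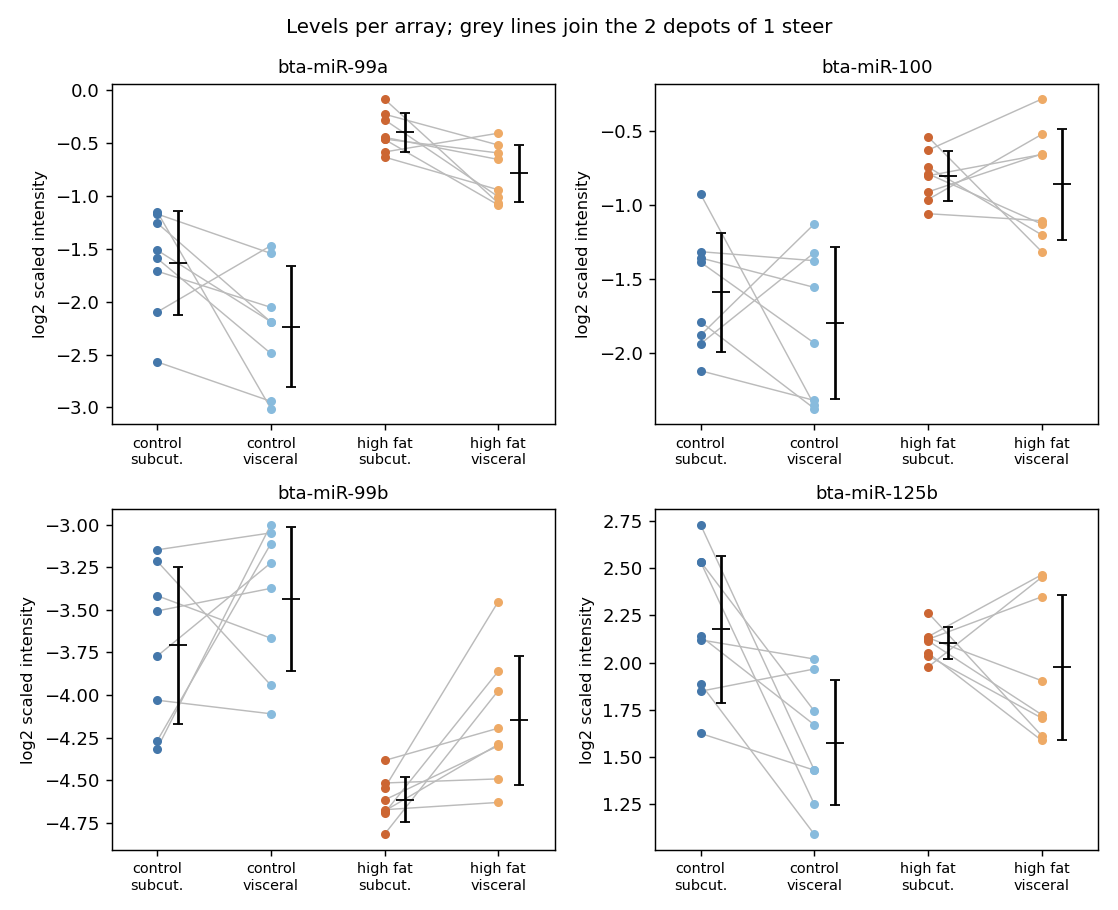
Log2 scaled intensity of the 4 members detected on all arrays, with 1 point per array, grey lines between the 2 depots of a steer and black marks for the mean and SD of the 8 arrays of a group. Under this scaling the high fat arrays of bta-miR-99a lie above the control arrays of the same depot without overlap. Those of bta-miR-99b lie lower, with overlap in visceral fat, and those of bta-miR-100 and bta-miR-125b overlap with the control arrays in both depots.

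bta-miR-125a, which shares a cluster with bta-miR-99b, was near the limit of detection. Where detected in subcutaneous fat its log2 scaled intensity was -6.34 to -5.07 (median -5.75, 5 arrays) in control steers and -8.65 to -7.94 (median -8.16, 7 arrays) in high fat steers. In visceral fat it was -5.96 to -5.46 (3 arrays) and -7.84 to -6.61 (6 arrays). The median detection limit of an array, the lowest scaled intensity called detected on it, was -6.79 and -5.85 on control subcutaneous and visceral arrays and -9.52 and -8.50 on the high fat ones. With values under the floor set to it, the fitted difference was -0.96 (SE 0.297, adjusted p = 0.00462 by limma) in subcutaneous and -0.43 (SE 0.297, adjusted p = 0.199) in visceral fat. All 8 high fat subcutaneous arrays were at the floor, so this size depends on the floor, and the call was lost with the floor at the highest group median (-0.18, adjusted p = 0.0629). The visceral difference was called lower with the floor at an intensity of 1 (-1.21, adjusted p = 0.0215 by limma), with spot intensities (-1.90, adjusted p = 9.60e-09) and with normexp (-1.90, adjusted p = 1.10e-11), but was 0.69 without scaling.

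bta-miR-99a*, the other arm of the hairpin, was detected only on high fat arrays. Its unscaled intensity there was 5.86 to 13.3 (median 8.65) on 7 subcutaneous and 4.55 to 8.61 (median 5.35) on 3 visceral arrays. On the scaled log2 axis these values were -8.06 to -7.60, below the median detection limits of the control arrays, so the control arrays could not have shown such a level and no fold is given.

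The size and the direction of single diet differences depended on the scaling between arrays, which had to absorb the 5.42-fold ratio of summed intensity. Under the main scaling the median difference of the 91 miRNAs detected on all arrays was -0.91 and -0.80 in subcutaneous and visceral fat, and that of all 233 tested was 0.10 and 0.17. Without scaling, bta-miR-99a differed by 4.15, bta-miR-100 by 3.70, bta-miR-125b by 2.84 and bta-miR-99b by 2.01 in subcutaneous fat, all higher in high fat steers. With the 75th percentile over all miRNAs of the array each of them was lower in high fat steers, with differences of -2.91, -3.36, -4.21 and -5.05. In the authors' deposited GeneSpring values, the differences of bta-miR-99a were -0.16 in subcutaneous and 0.38 in visceral fat and neither was called (adjusted p = 0.691 and 0.332 by limma), so the higher level of bta-miR-99a was not found in those values. On 14 of the 32 arrays the deposited values equalled the unscaled log2 intensity. They thus mix scaled and unscaled arrays and cannot decide the direction. Apart from quantile normalization, each of these scalings shifts all miRNAs of an array together before the floor is set. It thus leaves the distances between the 4 members detected on all arrays as they are, but not those to bta-miR-125a, which has values at the floor. With quantile normalization bta-miR-99a differed by 0.96 and 1.21 and bta-miR-99b by -1.22 and -0.94 in subcutaneous and visceral fat.

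**Figure D2:**
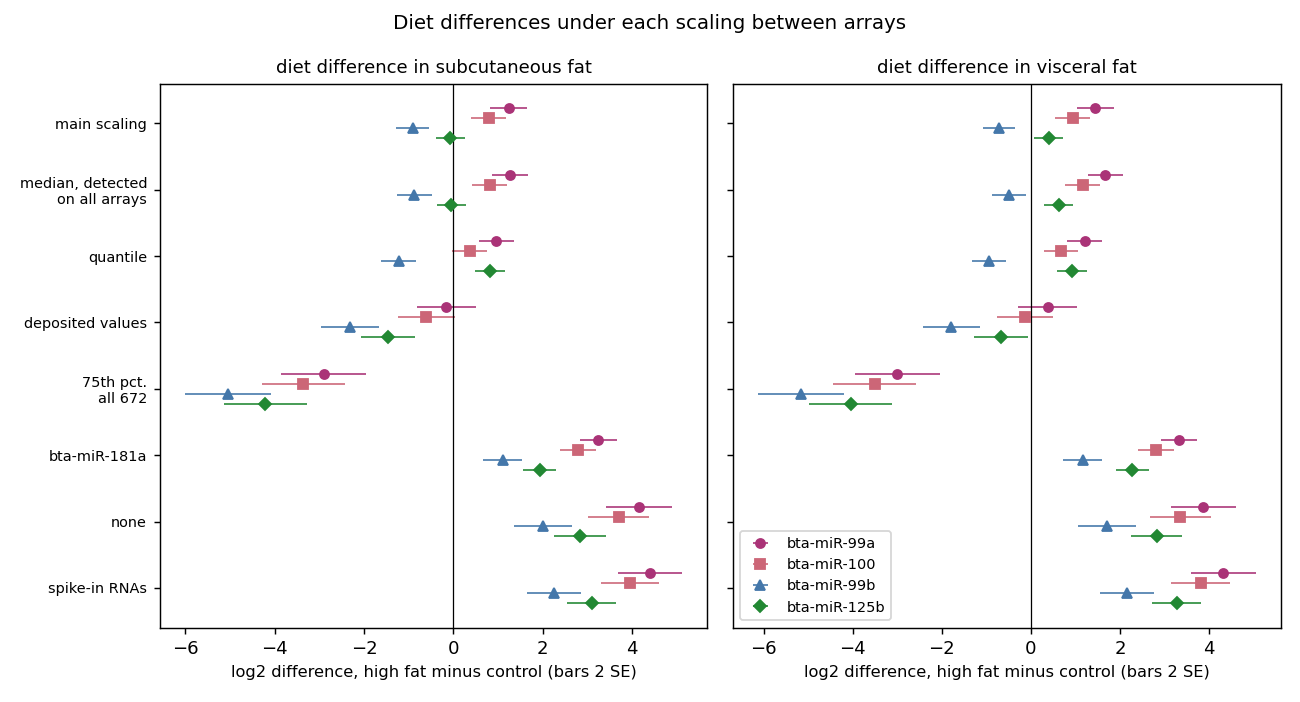
Diet difference (high fat minus control, log2) of the 4 members detected on all arrays under the main and 7 other scalings, with bars of 2 SE, in subcutaneous (left) and visceral fat (right). The scaling moves all 4 members across 0, and apart from quantile normalization it moves them by the same amount, so that their order is fixed.

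Ratios within an array do not depend on scalings that shift all its miRNAs together, but quantile normalization changes them. They show only that members changed unequally. For 8 pairs of members, or of members and cluster partners, detected on all arrays, the whole fit was repeated relative to the second miRNA of the pair. The ratio of bta-miR-99a to bta-miR-99b was higher in high fat steers by 2.14 in subcutaneous (SE 0.200, adjusted p = 2.37e-11 by limma) and 2.17 in visceral fat (SE 0.200, adjusted p = 2.09e-11), a 4.41-fold and a 4.49-fold change between members of 1 seed family. Relative to the control subcutaneous median it was -1.18 to 0.48 and -1.69 to -0.48 in control steers in subcutaneous and visceral fat, and 1.68 to 2.31 and 0.82 to 1.67 in high fat steers, with no overlap between diets in either depot. The share of all miRNAs without overlap relative to bta-miR-99b was not counted, while for scaled levels it was 52.8% and 46.4%. The ratio of bta-miR-100 to bta-miR-99b was higher by 1.69 and 1.65 (adjusted p = 9.15e-12 and 1.87e-11 by limma). Relative to bta-miR-99b, 61.6% and 65.1% of all miRNAs were called higher in subcutaneous and visceral fat, so these ratios were shared with most miRNAs.

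Members of 1 cluster were compared with each other and with their let-7 neighbours. Under the main scaling bta-let-7c, the neighbour of bta-miR-99a, was lower in high fat steers, with differences of -2.63 in subcutaneous and -2.89 in visceral fat. Its unscaled median intensity in control and high fat steers was 2968 and 3978 in subcutaneous and 2660 and 2169 in visceral fat. In subcutaneous fat its direction thus depended on the scaling. Under the main scaling 6 of 8 let-7 miRNAs tested were called lower and 1 higher in each depot, where 34.3% and 29.6% of all miRNAs were called lower and 41.6% and 42.1% higher. The ratio of bta-miR-99a to bta-let-7c was therefore higher by 3.86 in subcutaneous (SE 0.243, adjusted p = 5.71e-16 by limma) and 4.34 in visceral fat (SE 0.243, adjusted p = 2.59e-17), which is 14.5-fold and 20.2-fold, and with normexp by 2.89 and 2.91. Relative to bta-let-7c 86.6% and 90.5% of all miRNAs were called higher, so this rise was shared with most miRNAs.

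The ratio of bta-miR-100 to bta-let-7a, which has other gene copies too, was higher by 2.38 and 2.47 (adjusted p = 1.27e-13 and 5.78e-14 by limma) and with normexp by 1.50 and 1.36, where 69.8% and 73.3% of miRNAs were called higher. The ratio of bta-miR-99b to bta-let-7e was higher by 0.79 and 0.92 (adjusted p = 8.06e-05 and 9.51e-06 by limma), beside 70.7% and 73.3% of miRNAs called higher. This last ratio turned to -0.46 and -0.16 with normexp background correction of the spots, so its direction was not settled. That correction adds an offset of 50 to every spot, which draws the values of a dim miRNA such as bta-miR-99b together. How far the offset turned the ratio was not tested.

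Against bta-miR-125b, bta-miR-99a was higher by 1.31 and 1.05 (adjusted p = 1.51e-08 and 9.48e-07 by limma) and bta-miR-100 by 0.86 and 0.54 (adjusted p = 4.13e-07 and 3.80e-04), beside 40.1% and 32.3% of all miRNAs called higher relative to bta-miR-125b. With normexp background correction the ratio to bta-miR-125b was 0.43 and -0.19 for bta-miR-99a and 0.04 and -0.40 for bta-miR-100 in subcutaneous and visceral fat. With quantile normalization the diet difference of bta-miR-100 (0.36 and 0.68) was below that of bta-miR-125b (0.82 and 0.93). That of bta-miR-99a (0.96 and 1.21) stayed above it. Against bta-miR-100, bta-miR-99a was higher by 0.45 and 0.51 (adjusted p = 0.00356 and 0.00106 by limma), beside 28% and 25.9% of all miRNAs called higher, and with normexp by 0.39 and 0.21, the latter not called (adjusted p = 0.0617). Without the subcutaneous sample of C108 all 16 diet ratios stayed called.

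**Figure D3:**
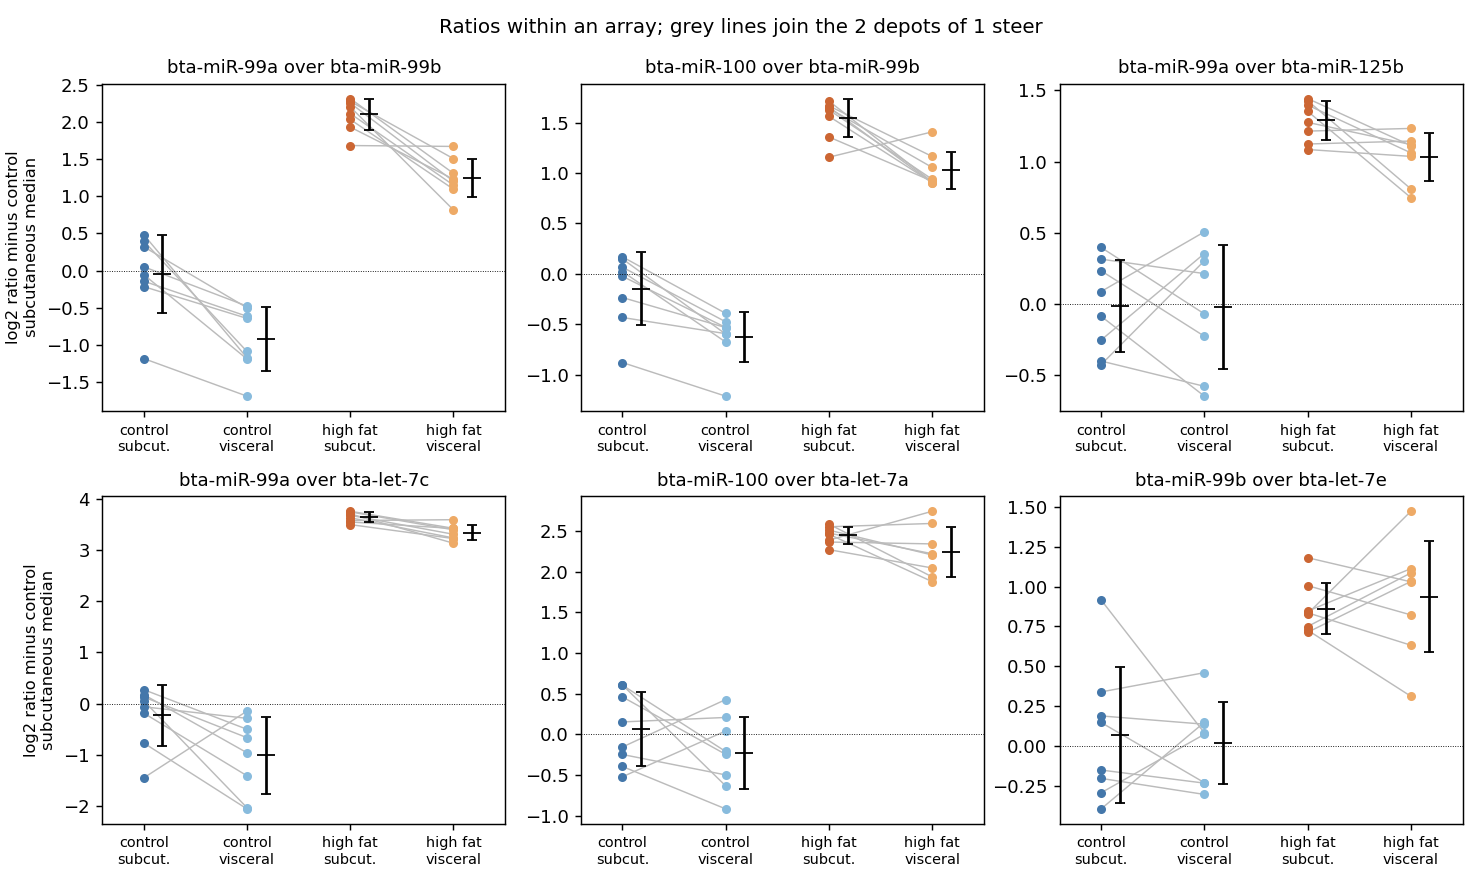
Log2 ratios within an array, relative to the median of the control subcutaneous arrays, for 6 pairs, with 1 point per array, grey lines between the depots of a steer and black marks for mean and SD of 8 arrays. Control and high fat arrays of a depot do not overlap for bta-miR-99a over bta-miR-99b, and the ratio is lower in visceral fat in 8 of 8 steers on each diet. How many of all miRNAs show no overlap relative to bta-miR-99b was not counted.

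Under the main scaling the relatives bta-miR-10a and bta-miR-10b, of the same wider miRNA family, were higher in high fat steers, while bta-miR-99b was lower. In subcutaneous and visceral fat 41.6% and 42.1% of all miRNAs were called higher, so these calls do not set the relatives apart. bta-miR-10b differed by 1.39 in subcutaneous and 1.48 in visceral fat (adjusted p = 4.38e-07 and 1.35e-07 by limma), and bta-miR-10a by 0.96 and 1.28 (adjusted p = 0.00144 and 6.32e-05).

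The question of the next comparisons was whether depots of the same steers differed. In control steers bta-miR-99a and bta-miR-125b were lower in visceral fat, and in high fat steers no member was called. In control steers 0 of 5 members were called higher and 2 lower (limma), where 6.87% of all miRNAs were called higher and 12% lower. In high fat steers 0 were called in either direction at adjusted p under 0.05, beside 11.6% and 14.6% of all miRNAs, although bta-miR-99b had an unadjusted p of 0.0168 and the methods' t-test, after Benjamini-Hochberg adjustment, called bta-miR-99a and bta-miR-99b. Groups of 8 overlapped for each member in both comparisons, as they did for all miRNAs in control steers (0% without overlap) and for most in high fat steers (9.44% without overlap).

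In control steers the visceral minus subcutaneous difference of bta-miR-99a was -0.60 (SE 0.203, adjusted p = 0.0337 by limma), and it was lower in visceral fat in 7 of 8 steers. That of bta-miR-125b was -0.60 (SE 0.162, adjusted p = 0.00732), also lower in 7 of 8 steers. In the paired fit with the steer as a replicate block both stayed called, at adjusted p = 0.0450 and 0.0214, and without the subcutaneous sample of C108 they were -0.74 (adjusted p = 0.00499) and -0.68 (adjusted p = 0.00248). With the methods' t-test and Benjamini-Hochberg adjustment bta-miR-99a was not called (adjusted p = 0.168), nor was it without scaling (-0.98, adjusted p = 0.0823 by limma) or with normexp background correction (-0.12, adjusted p = 0.383). The call of bta-miR-125b was lost with quantile normalization (-0.16, adjusted p = 0.618 by limma), and both were lost when arrays were scaled to the labelling spike-in RNAs or to the percentile over all miRNAs. The differences of bta-miR-100 (-0.21, 95% interval -0.60 to 0.18), bta-miR-99b (0.27, -0.10 to 0.65) and bta-miR-125a (-0.38, -0.99 to 0.22) did not pass the test.

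In high fat steers bta-miR-99b was higher in visceral fat in 8 of 8 steers, by 0.47 (95% interval 0.09 to 0.84), with an adjusted p of 0.0585 by limma. It was called with quantile normalization (0.55, adjusted p = 0.0310) and with normexp (0.68, adjusted p = 6.13e-04), but turned without scaling (-0.40) and with the spike-in RNAs (-0.049). bta-miR-99a was lower in visceral fat in 7 of 8 steers, with a difference of -0.39 (95% interval -0.80 to 0.03, adjusted p = 0.167 by limma). Under the main scaling bta-miR-100 (-0.05, 95% interval -0.45 to 0.34) and bta-miR-125b (-0.13, -0.46 to 0.20) were near 0. bta-miR-100 was lower in 4 and higher in 4 steers. Without scaling both miRNAs were called lower (-0.92 and -0.997, adjusted p = 0.0244 and 0.00467 by limma). They turned to 0.13 and 0.059 with the median over the miRNAs detected on all arrays. The value of bta-miR-125a (0.14, -0.47 to 0.75) depended on the floor, where 8 subcutaneous and 5 visceral arrays lay. It was called higher with spot intensities (0.94, adjusted p = 0.00293 by limma) and normexp (0.86, adjusted p = 6.81e-04), but was -0.044 without scaling. For so dim a miRNA these calls, too, cannot be told apart from the scaling.

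**Figure D4:**
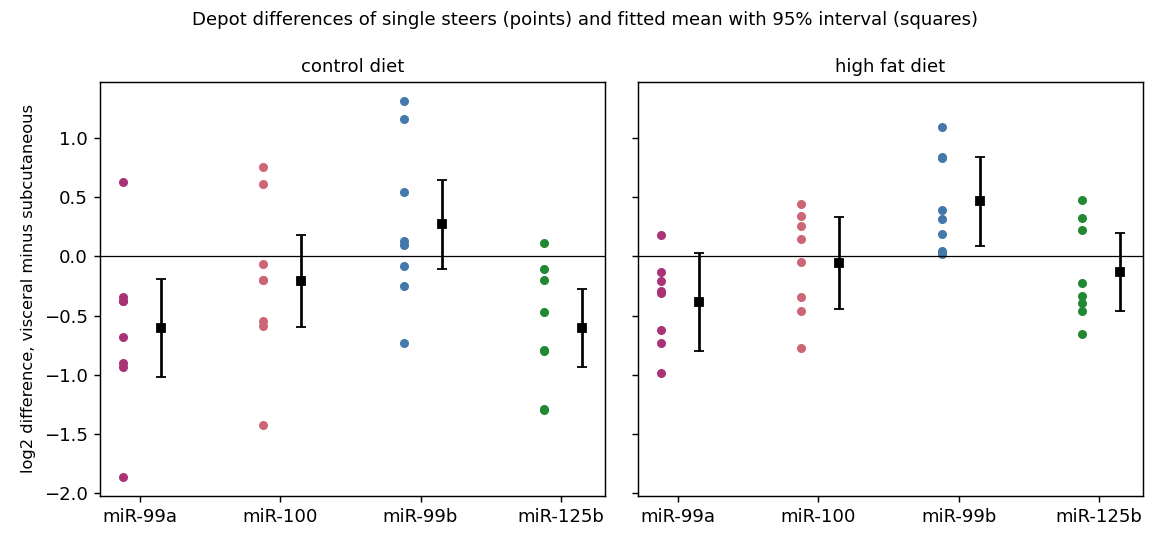
Visceral minus subcutaneous difference (log2) of single steers (coloured points, 8 per diet) and the fitted mean with its 95% interval (black squares) for the 4 members detected on all arrays, on the control (left) and high fat diet (right). Under the main scaling bta-miR-99a is below 0 in 7 of 8 steers on each diet, and bta-miR-99b is above 0 in 8 of 8 high fat steers, where its mean turns to -0.40 without scaling.

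The ratio of bta-miR-99a to bta-miR-99b was lower in visceral fat in 8 of 8 steers on each diet. It differed by -0.88 in control steers (SE 0.200, adjusted p = 0.00209 by limma) and -0.85 in high fat steers (SE 0.200, adjusted p = 0.00194), a 1.84-fold and a 1.81-fold difference between depots. The ratio of bta-miR-100 to bta-miR-99b differed by -0.48 (adjusted p = 0.0246 by limma, 8 of 8 steers) and -0.52 (adjusted p = 0.00944, 7 of 8 steers). Relative to bta-miR-99b, 16.4% of all miRNAs were called lower in visceral fat in control steers and 26.3% in high fat steers.

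The direction of both ratios stayed with normexp background correction, but in control steers neither was called there (-0.38, adjusted p = 0.135, and -0.25, adjusted p = 0.450, by limma). In the paired fit with the steer as a replicate block all 4 stayed called (adjusted p = 0.00389 and 0.00382 for bta-miR-99a, 0.0443 and 0.0193 for bta-miR-100), and without the subcutaneous sample of C108 the control differences were -1.04 and -0.59. Of the other depot ratios 2 were called, both in control steers. bta-miR-99a over bta-let-7c differed by -0.78 (adjusted p = 0.0242 by limma), beside 12.9% of all miRNAs called lower, but not with normexp (-0.22, adjusted p = 0.650). bta-miR-100 over bta-miR-125b was higher by 0.40 (adjusted p = 0.0113 by limma), beside 46.1% of all miRNAs called higher.

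Some markers of cell types differed between depots under the main scaling. Of those tested, 1 of 6 of fat and 1 of 2 of endothelium were called higher in visceral fat on each diet, and 0 of 3 of muscle were called. In control steers 1 of 5 of blood and immune cells was called higher and 1 of 2 of kidney lower. In high fat steers 1 of 5 of blood and immune cells was called higher and 2 lower, and 1 of 2 of kidney higher and 1 lower. Of the 5 markers of fibroblasts and stroma 4 (bta-miR-199a-3p, bta-miR-199a-5p, bta-miR-199b and bta-miR-214) were called lower and 1 (bta-miR-145) higher in visceral fat on each diet, where 12% and 14.6% of all miRNAs were called lower and 6.87% and 11.6% higher in control and high fat steers. The summed scaled intensity of the list was 2.92 to 4.38 in subcutaneous and 2.37 to 4.34 in visceral fat in control steers, and 4.72 to 5.91 and 3.52 to 5.10 in high fat steers. That of endothelium was 0.578 to 1.50 and 0.863 to 2.42 in control steers and 3.57 to 4.84 and 5.09 to 8.23 in high fat steers, and that of the fat markers was 1.41 to 2.80, 2.12 to 3.95, 2.32 to 2.90 and 3.17 to 5.08 in the same order. Their part in the differences of the members between depots and diets was not tested.

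Whether the depot difference was the same on both diets was tested as an interaction. No member passed limma's test (0 of 5, beside 1.72% of all miRNAs in either direction), with adjusted p between 0.396 and 0.908, and 1 of them, bta-miR-125b, had an unadjusted p under 0.05. For bta-miR-125b the depot difference was -0.60 in control and -0.13 in high fat steers. The high fat minus control value was 0.47 (95% interval 0.01 to 0.94, unadjusted p = 0.0476, adjusted p = 0.396 by limma). For the ratio of bta-miR-99a to bta-miR-99b the difference between diets was 0.02 (95% interval -0.55 to 0.60, adjusted p = 0.990 by limma), but with normexp background correction it was -0.60 (adjusted p = 0.0487).

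Across the 4 groups under the main scaling, bta-miR-99a was highest in high fat subcutaneous fat, followed by high fat visceral, control subcutaneous and control visceral fat, with mean log2 scaled intensities of -0.40 ± 0.19, -0.78 ± 0.27, -1.63 ± 0.49 and -2.24 ± 0.57 (SD, n = 8). Of these neighbours the depots in high fat steers did not pass the test and the depots in control steers did, while high fat visceral and control subcutaneous fat come from different diets and depots and were not compared. For bta-miR-100 the same order held, at -0.80 ± 0.17, -0.86 ± 0.38, -1.59 ± 0.40 and -1.79 ± 0.51, and the depots did not pass the test on either diet. bta-miR-99b had the reverse order of diets under the main scaling (which turned without scaling, where its diet differences were 2.01 and 1.71), with -3.44 ± 0.42 in control visceral, -3.71 ± 0.46 in control subcutaneous, -4.15 ± 0.38 in high fat visceral and -4.62 ± 0.13 in high fat subcutaneous fat. bta-miR-125b was at 2.18 ± 0.39 in control subcutaneous, 2.10 ± 0.09 in high fat subcutaneous, 1.97 ± 0.38 in high fat visceral and 1.57 ± 0.33 in control visceral fat.

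Steers differed least in high fat subcutaneous fat. There the SD of the 4 members detected on all arrays was 0.086 to 0.186, against 0.390 to 0.494 in control subcutaneous fat. This was shared with the other miRNAs, whose median SD over the 91 detected on all arrays was 0.201 and 0.483 in these groups.

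The members were also compared by how they varied over the steers of a group. As a description over 8 arrays per group, which share their scaling, the correlation of bta-miR-99a with bta-miR-100 was 0.845 to 0.955 in the 4 groups (median 0.915), the highest of bta-miR-99a with any of 89 miRNAs compared, whose median was 0.284. The next most alike were bta-miR-26a (median 0.840) and bta-miR-125b (0.736). For bta-miR-100 they were bta-miR-99a, bta-miR-125b (0.892) and bta-miR-10b (0.851), and for bta-miR-125b they were bta-miR-100, bta-miR-214 (0.757) and bta-miR-99a. The miRNAs most like bta-miR-99b were bta-miR-23a (0.822), bta-miR-24-3p (0.816) and bta-miR-103 (0.798), none of them a member or a cluster partner. Its correlation with bta-miR-99a was 0.133 to 0.726 (median 0.524) and with bta-miR-100 0.228 to 0.885 (median 0.766), lowest for both in high fat subcutaneous fat.

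The let-7 neighbours were compared in the same way. The correlation of bta-miR-99a with bta-let-7c was 0.065 and -0.443 in control subcutaneous and visceral fat and 0.921 and 0.891 in high fat steers, and by its median bta-let-7c ranked 29 among the miRNAs compared. That of bta-miR-100 with bta-let-7a had a median of 0.539 and that of bta-miR-99b with bta-let-7e of 0.412.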

How the data were processed

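Each array was scanned once. From the scans the authors extracted, with Feature Extraction, and deposited a background-subtracted intensity for each spot and a total intensity for each miRNA (20 spots, with 2 probes for each member). These were not scaled between arrays, and an undetected miRNA holds 0.1. The authors also deposited log2 values from GeneSpring after 75th percentile normalization, whose features were matched by value (244 of 244) and used as an alternative. On 14 of the 32 arrays the matched values equalled the log2 total intensity with no shift, so the arrays were not all scaled alike. The other deposited columns used, such as the detection calls, were taken as given. 0 spots were saturated and 3.30% carried an outlier mark.

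Groups came from the diet and depot in the labels. For scaling, the 75th percentile of each array was taken from the 91 miRNAs that every array detected. Lower values were raised to a common floor of 0.00671 (log2 -7.22). Detection on 8 or more arrays was required, which 240 miRNAs passed. After 7 that never exceeded the floor were left out, 233 were tested with limma 3.58.1 (lmFit, eBayes) in R 4.3.3, with the 4 groups in 1 fit, two-sided, and Benjamini-Hochberg adjustment over all of them at a threshold of 0.05. The fit was tested on simulated data. Ratios used the same fit after each array was shifted so that the reference miRNA was 0. The steer numbers of the labels pair the depots of an animal, and the steer was a replicate block in an alternative. The alternatives were other scalings, spot intensities, normexp correction (offset 50), floors and filters, the methods' t-test, single probes, the slide position as a block, and leaving out the subcutaneous sample of C108.

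The miRNAs named are the 6 members, the let-7 and miR-10 relatives, the markers and, for likeness, the 3 miRNAs with the highest median within-group correlation. Members and lists were chosen with earlier results of these data known. The number of arrays and the detection limit of each array limit the precision.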

Additional observations from a re-analysis of the deposited data

How the results depend on the processing

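Of 603 single values recomputed under the alternatives, 485 kept their direction and their side of the threshold, 27 lost and 23 gained the call in the same direction, 62 changed sign and 6 without a test, all of bta-miR-125a from single probes, moved by more than the spread between samples. The cause of these changes was not tested, apart from the alternative's own construction. Differences below are log2 and in the direction of the report, and where 2 values are given they are for subcutaneous and visceral fat.

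With the 75th percentile over all miRNAs of the array, the diet differences of bta-miR-99a (-2.91 and -3.00), bta-miR-100 (-3.36 and -3.51) and, in visceral fat, bta-miR-125b (-4.05) changed sign, as did the control depot difference of bta-miR-100 (0.11) and the difference between diets of bta-miR-99a (-0.088), bta-miR-99b (-0.11) and bta-miR-100 (-0.15). That percentile was the value of undetected miRNAs on most control arrays. Without scaling, the diet differences of bta-miR-99b (2.01 and 1.71), bta-miR-125a (0.47 and 0.69) and, in subcutaneous fat, bta-miR-125b (2.84) changed sign, as did the depot differences of bta-miR-99b (-0.10 in control and -0.40 in high fat steers) and bta-miR-125a in high fat steers (-0.044) and the differences between diets of bta-miR-99a (-0.27), bta-miR-99b (-0.30), bta-miR-100 (-0.34) and bta-miR-125b (-0.017). With the labelling spike-in RNAs these were 2.26 and 2.16 for bta-miR-99b, 0.71 and 0.87 for bta-miR-125a and 3.09 for bta-miR-125b between diets, -0.049 for bta-miR-99b between depots in high fat steers, and -0.074, -0.099 and -0.14 for bta-miR-99a, bta-miR-99b and bta-miR-100 in the difference between diets. With bta-miR-181a they were 1.10 and 1.16 for bta-miR-99b, 0.62 for bta-miR-125a in visceral fat and 1.93 for bta-miR-125b in subcutaneous fat. With quantile normalization bta-miR-125b was 0.82 in subcutaneous fat and bta-miR-100 0.082 between depots in high fat steers, and with the median over the miRNAs detected on all arrays bta-miR-100 was 0.13 and bta-miR-125b 0.059 there. In the deposited values bta-miR-99a was -0.16 in subcutaneous fat, bta-miR-100 -0.61 and -0.13, bta-miR-125b -0.67 in visceral fat and bta-miR-99b -0.030 between depots in control steers.

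With normexp background correction bta-miR-125b was 0.20 between diets in subcutaneous fat, bta-miR-100 0.013 and 0.017 between depots of control and high fat steers, bta-miR-125a 0.28 between depots in control steers and bta-miR-99a -0.18 in the difference between diets. Ratios that changed sign under it were bta-miR-99b over bta-let-7e (-0.46 and -0.16 between diets, 0.019 between depots in control steers), bta-miR-99a over bta-miR-125b (-0.19 between diets in visceral fat, 0.50 between depots in control steers), bta-miR-100 over bta-miR-125b (-0.40 between diets in visceral fat), bta-miR-100 over bta-let-7a (0.016 between depots in control steers and -0.14 in the difference between diets), and, in the difference between diets, bta-miR-99a over bta-miR-100 (-0.18) and bta-miR-99a over bta-miR-99b (-0.60, adjusted p = 0.0487 by limma). With spot intensities bta-miR-125a (0.41) and bta-miR-99a over bta-miR-125b (0.054) changed sign between depots in control steers, and bta-miR-100 over bta-miR-99b in the difference between diets (0.033, and 0.064 without the subcutaneous sample of C108).

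The number of members called between diets was 4 in subcutaneous fat and 3 to 5 under the alternatives. In visceral fat it was 4, and 1 in the deposited values and by the methods' t-test with Bonferroni correction, 3 by that t-test with Benjamini-Hochberg adjustment, and 5 with the percentile over all miRNAs, no scaling, the spike-ins, spot intensities or the floor at an intensity of 1. Between depots in control steers it was 2, and 1 without scaling, with quantile normalization, normexp, the deposited values or the t-test with Benjamini-Hochberg adjustment, and 0 with the percentile over all miRNAs, the spike-ins or the t-test with Bonferroni correction. In high fat steers it was 0, and 3 without scaling or with normexp, 2 with spot intensities or the t-test with Benjamini-Hochberg adjustment, and 1 with the median over the miRNAs detected on all arrays, quantile normalization, the spike-ins, bta-miR-181a, or when the test was limited to miRNAs that every array detected. The steer as a replicate block in the paired fit changed no call of a member or a ratio, with 2 and 0 members called in control and high fat steers and 6 depot ratios called as in the unpaired fit. The position on the slide changed none either. Leaving out the subcutaneous sample of C108 changed 1 call, bta-miR-99a over bta-miR-100 between depots in control steers (from -0.40, adjusted p = 0.0519, to -0.46, adjusted p = 0.0143, by limma).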
